A study of Mus musculus with 12 samples.

Results

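The comparison described here sets 24 h against 12 h of tunicamycin in mouse embryonic fibroblasts that lack XBP1. It uses the 4 arrays labelled XBP1KO with tunicamycin at these times, out of 12 arrays in the series, with 2 arrays at 12 h and 2 at 24 h and the same replicate number linking an array at one time to an array at the other. The cells had the genotype XBP1KO on a C57BL/6 background, and both groups received tunicamycin at 2 ug/mL, so the drug and the missing XBP1 are common to both sides of the comparison. Untreated XBP1KO fibroblasts (2 arrays) and wild type fibroblasts of the same background (2 arrays each untreated, at 12 h and at 24 h) are used beside them. The labels describe the replicates as independent experiments. They do not say whether the knockout cells came from 1 clone, 1 embryo or several, nor which allele removes XBP1. The p-values therefore measure the spread between cultures, estimated jointly over all 12 arrays and not from the 4 compared here alone. Total RNA was labelled with Cy3 and hybridised to 1-colour Agilent mouse miRNA arrays, which carry probes for 611 mouse and 39 viral miRNAs.

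Tunicamycin blocks the addition of N-linked sugars, so that unfolded glycoproteins gather in the endoplasmic reticulum and start the unfolded protein response. That response has branches led by the sensors IRE1, PERK and ATF6. IRE1 splices the mRNA of XBP1, a transcription factor that raises genes of protein folding and of secretory capacity, so cells without XBP1 keep the sensor and lose this target. A miRNA is cut from a hairpin that yields a guide arm, which is loaded into Argonaute and pairs with mRNAs mainly through its seed (bases 2 to 8), and a passenger arm, which is mostly degraded and which older names mark with an asterisk. Mature miRNAs often last for days, while some turn over within hours.

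The arrays read as fibroblasts by their marker miRNAs. Of 12 fibroblast or mesenchymal markers on the array, 9 were detected on both 12 h arrays, 11 on the first 24 h array and 10 on the second, and miR-21, a miRNA abundant in fibroblasts, was the brightest on all 4 (log2 scaled signal 13.58 and 13.28 at 12 h, 14.06 and 13.88 at 24 h). None of 7 epithelial markers was detected on a knockout array. The 2 endothelial markers gave a single detection, on the second 24 h array. Of 7 blood cell markers only miR-155 was tested, and it did not pass the threshold (log2 difference 0.36, SE 0.21). Before scaling, the signal summed over mouse miRNAs came to 40327 and 78153 on the 12 h arrays and 35462 and 41866 on the 24 h arrays, against 184245 and 185591 in untreated knockout cells. The number of mouse miRNAs detected was 200 and 194 at 12 h and 146 and 159 at 24 h. Every array was scaled to a common 75th percentile, with 95 mouse miRNAs that all 12 arrays detected as the reference, so a difference below is relative to those miRNAs, and fewer cells of a kind and less RNA per cell cannot be told apart. All 4 arrays lay on 1 slide, as did the wild type tunicamycin arrays, while the untreated arrays lay on another. Among the tunicamycin arrays, those with the same replicate number shared a scan, and the untreated arrays were on other scans.

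The sequences that the results turn on are shown here, 5′ to 3′, from RefSeq tables of the build GRCm38.p6, with the seed in capitals. The first set holds miRNAs with large falls between 12 h and 24 h, among them asterisk arms of abundant hairpins.
miR-207: gCUUCUCCuggcucuccucccuc
miR-877*: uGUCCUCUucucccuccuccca
miR-485*: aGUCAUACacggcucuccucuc
miR-346: uGUCUGCCcgagugccugccucu
miR-706: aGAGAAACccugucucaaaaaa
let-7d*: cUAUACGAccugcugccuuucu
miR-15a*: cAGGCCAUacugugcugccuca
The second set holds miRNAs with rises, with the opposite arms of let-7d* and miR-15a* among them.
let-7d: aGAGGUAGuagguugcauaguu
let-7i: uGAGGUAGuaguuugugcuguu
miR-15a: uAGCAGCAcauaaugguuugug
miR-15b: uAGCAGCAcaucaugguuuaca
miR-193b: aACUGGCCcacaaagucccgcu
miR-100: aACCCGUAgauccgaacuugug
miR-148a: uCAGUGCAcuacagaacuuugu
miR-152: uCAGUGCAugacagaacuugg
The third set shows a seed shared by a miRNA that rose (miR-362-3p) and one that fell (miR-329).
miR-362-3p: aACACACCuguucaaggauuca
miR-329: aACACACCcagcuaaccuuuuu

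Between 12 h and 24 h, 56 of 256 tested miRNAs fell and 45 rose, so that 101 (39.5%) passed the threshold of limma's adjusted p, 17.6% as higher and 21.9% as lower. The falls were large, and 37 and 39 of the 56 were at the floor on the untreated arrays. The rises were smaller and ran from miRNAs at the floor at 12 h, such as miR-152, to bright ones such as let-7a and miR-125b-5p. The 56 log2 differences downward ran from -4.86 to -0.99 with a median of -3.11, a fold of 8.61. The 45 upward ran from 0.42 to 1.85 with a median of 0.78, a fold of 1.72. Over all tested miRNAs the median difference was 0.00, and 166 (64.8%) had 12 h values that did not overlap the 24 h values. Without the adjustment, 124 had a p under 0.05, of which 58 were higher and 66 lower.

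These counts rest on the level at which the arrays were set equal and on single arrays. Of the 95 reference miRNAs themselves 38 rose and 9 fell, with a median difference of 0.50, and 7 of the 9 belong to the miR-466-type families described below. Scaling to the 50th percentile gave 20 higher and 60 lower, scaling over all mouse miRNAs 89 and 50, scaling over those detected on the 4 arrays 68 and 56, quantile normalization 81 and 53, normexp background correction 13 and 30, no scaling 0 and 34, and the authors' deposited log2 values, which are not scaled between arrays, 1 and 15. Scaling over all mouse miRNAs moved the median of the tested miRNAs up by 0.54, quantile normalization by 0.46 and normexp by 0.19. Without the second 12 h array the counts were 6 higher and 29 lower, and without the first 26 and 32. Without any 1 of the 4 untreated arrays of both genotypes they were 28 and 50. A fit of the 4 arrays alone with the replicate number as a block called 0 (50 at an unadjusted p under 0.05, limma), and the same block among all 12 arrays 41 higher and 55 lower.

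**Figure D1:**
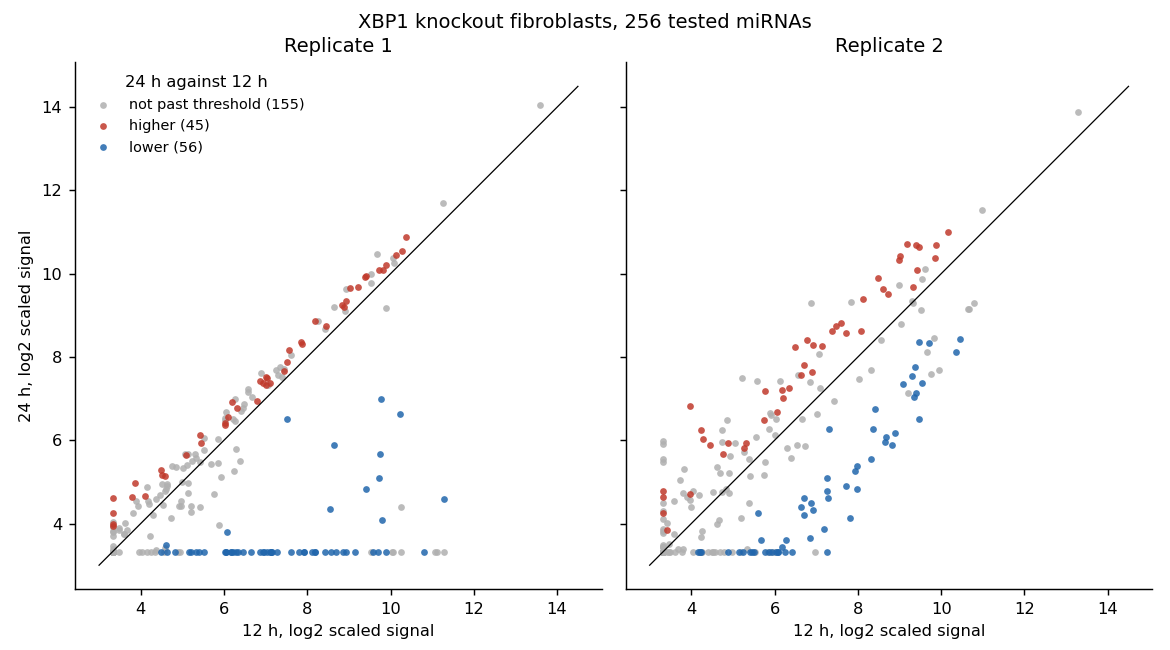
Log2 scaled signal of the 256 tested miRNAs at 12 h (x axis) and 24 h (y axis), 1 panel per replicate number; the line marks equal values and colours mark the 45 higher and 56 lower miRNAs. Of the 56 lower miRNAs, 44 lie at the floor of 3.33 on the first 24 h array and 18 on the second, where the others lie between the floor and the line.

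The median levels of the falling miRNAs were low in untreated cells and at 24 h, with exceptions. The labels give the untreated cultures no time, so they are not a time point before 12 h. Their median log2 level was 3.33, the floor, on both untreated knockout arrays, 7.22 and 7.21 on the 12 h arrays, and 3.33 and 4.45 on the 24 h arrays. They held 27.7% and 26.96% of the tested miRNAs' scaled signal at 12 h, against 1.26% and 5.85% at 24 h and 2.80% and 2.39% in untreated cells. Between untreated cells and 12 h, 126 of the 256 tested miRNAs (49.2%) passed, a comparison in which slide, scan and treatment are confounded. The falls did not reach equally far on the 24 h arrays: 44 of the 56 were at the floor on the first and 18 on the second, and the median difference was -3.75 within the first replicate and -2.42 within the second. Detection followed the same split, with 27 of the 56 detected on both 12 h arrays and on no 24 h array, 19 on 1 of the 24 h arrays and 9 on all 4. The remaining one, miR-290-5p, was detected on none of the 4 arrays and was above the floor on 3 of them. In untreated cells miR-669f read 8.73 and 8.66, miR-466a-3p 7.81 and 7.83, miR-574-5p 7.73 and 7.01 and miR-669a 7.18 and 7.21, so these were not dim there. These members were chosen by the test, so the levels describe them and add no support.

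Among the 15 largest falls, miR-207 moved most. Its log2 scaled signal was 10.81 and 10.36 at 12 h and 3.33 and 8.12 at 24 h, where 1 of 2 arrays detected it. In untreated cells it was 3.88 and 3.33. The difference of -4.86 (SE 1.48, limma adjusted p = 0.0372) therefore averages a fall to the floor and a fall of 2.24 in the second replicate. miR-197 read 9.71 and 9.46 at 12 h and 3.33 and 6.51 at 24 h (log2 difference -4.66, SE 1.27, adjusted p = 0.0264). miR-1196 (-4.36, SE 1.39), miR-1894-5p (-4.27, SE 1.18) and miR-468 (-3.98, SE 0.97) showed the same order of arrays, with both 12 h values high, the second 24 h value intermediate and the first lowest.

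Some falls ended at the floor on both 24 h arrays. miR-706 read 7.13 and 7.26 at 12 h and was at the floor in untreated cells and on both 24 h arrays. It was at least 14.6-fold lower at 24 h (log2 difference -3.87, SE 0.31, limma adjusted p = 0.000655). Its replicate differences, -3.80 and -3.93, were close to each other. miR-764-5p, at the floor on the first 24 h array alone, read 8.18 and 7.97 at 12 h and 3.33 and 4.83 at 24 h (log2 difference -4.00, SE 0.75, adjusted p = 0.00767), and it turned positive (0.94) with the software's total gene signal. Standard errors of values at the floor are too small, because a floored value has no spread.

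**Figure D2:**
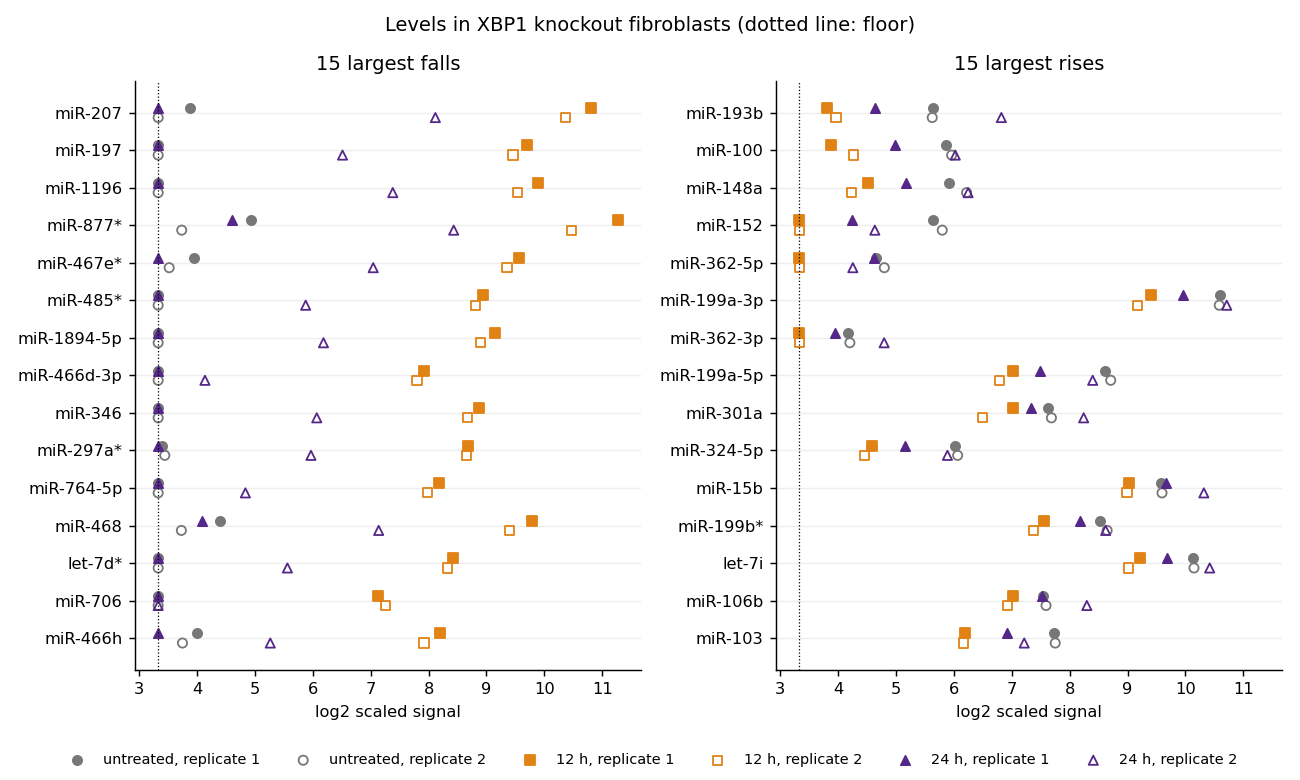
Log2 scaled signal (x axis) of the 15 largest falls and the 15 largest rises on each of the 2 untreated, 2 12 h and 2 24 h knockout arrays, filled for replicate 1 and open for replicate 2; the dotted line is the floor at 3.33. In the left panel both 12 h squares lie to the right of every other symbol, and in the right panel they lie to the left of both 24 h triangles.

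The largest single group among the falls was a set of related rodent families (miR-466, miR-669, miR-467 and miR-297), here called the miR-466-type families, most of whose genes lie in an intron of Sfmbt2, a gene related to Polycomb proteins. The list takes members by name. RefSeq places matched members outside that intron, miR-466j on chromosome 10 and others, which did not pass, on chromosomes 5 and 11. Of 39 members on the array 29 were tested, 18 fell, none rose and 11 did not pass, beside 21.9% lower among all tested miRNAs. Their median difference was -3.19, against 0.00 over all tested miRNAs, and 26 of 29 were lower in both replicates. The sum of their scaled signal took up 21.9% of the tested signal on each 12 h array, 1.01% and 6.36% at 24 h, and 2.90% and 2.65% in untreated cells.

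miR-466d-3p read 7.92 and 7.80 at 12 h and 3.33 and 4.14 at 24 h, where no array detected it, and was at least 17.5-fold lower (log2 difference -4.13, SE 0.40, limma adjusted p = 0.00108). miR-466l had the smallest p of all 256, with 6.05 and 5.94 at 12 h and the floor on both 24 h arrays, at least 6.36-fold lower (adjusted p = 0.000137). miR-669i (at least 12.4-fold lower) and miR-466j (at least 10.71-fold lower) were likewise detected on both 12 h arrays and neither 24 h array. miR-467e* (-4.28, SE 1.41), miR-297a* (-4.03, SE 1.07) and miR-466h (-3.76, SE 0.60) were detected on 1 of the 24 h arrays, the second.

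Members that every one of the 4 arrays detected fell too, and they are named here after their values were seen. miR-669a read 8.65 and 8.41 at 12 h and 5.89 and 6.74 at 24 h, with both 24 h values below both 12 h values and below the untreated 7.18 and 7.21 (log2 difference -2.21, SE 0.31, adjusted p = 0.00352). miR-669c (-3.19, SE 0.72), miR-467a* (-3.16, SE 0.77), miR-466c-5p (-3.15, SE 0.53), miR-669f (-1.93, SE 0.41) and miR-467c (-1.81, SE 0.42) fell from levels between 5.61 and 9.77. The smallest of these falls was that of miR-466a-3p, from 7.52 and 7.30 to 6.52 and 6.26 (adjusted p = 0.0215), and its sign turned (0.04) with scaling over all mouse miRNAs.

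The 11 members that did not pass included some of the brightest and some that pointed upward. miR-466g read 11.11 and 10.68 at 12 h and 3.33 and 9.14 at 24 h, so that the 24 h arrays were 5.81 apart on the log2 scale and the difference of -4.66 had an SE of 1.74 (adjusted p = 0.0747). miR-467b* stood in the same position (-4.59, SE 1.74, adjusted p = 0.0774). The arms without an asterisk from the same hairpins, miR-467a (0.68, SE 0.44) and miR-467b (0.63, SE 0.33), were higher at 24 h without passing, and miR-467b turned negative (-1.57) with the software's total gene signal.

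Of 115 asterisk arms on the array 35 were tested, 14 fell, 2 rose and 19 did not pass, beside 21.9% lower and 17.6% higher among all tested miRNAs. Their median difference was -0.90, against 0.00 over all tested. Of these, 4 tested arms with 3 of the falls belong to the miR-466-type families too. The median turned positive under normexp (0.05) and among arms above the floor on the 4 arrays (0.27) or detected on them (0.06), where 9 and 6 arms were left. let-7g* read 6.23 and 6.24 at 12 h and the floor on both 24 h arrays and both untreated arrays, at least 7.50-fold lower at 24 h (limma adjusted p = 0.00165). miR-18a* behaved alike, with 6.17 and 6.17 at 12 h, 3.33 and 3.45 at 24 h, and at least 6.88-fold lower (adjusted p = 0.00460). let-7f* was at least 5.49-fold lower and miR-15a* at least 9.27-fold lower. The 2 arms that rose were miR-31* (0.66, SE 0.13) and miR-199b* (0.94, SE 0.21), the latter an arm that is abundant in these cells.

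Opposite arms of the same hairpin could be compared in 27 pairs of a plain and an asterisk name. In 6 pairs the plain arm rose and the asterisk arm fell, and in none was the order the other way round. Among all tested miRNAs 17.6% were higher and 21.9% lower. Both arms of miR-31 rose, and over 38 pairs, with those named 5p and 3p added, 3 had both arms higher and 0 both lower. The 6 pairs are named after their values were seen, and those of let-7 are not independent of each other. The 6 were let-7b, let-7d, let-7f, let-7g, miR-15a and miR-16 with their asterisk arms. let-7d rose from 8.89 and 8.49 at 12 h to 9.20 and 9.90 at 24 h (log2 difference 0.86, SE 0.25, adjusted p = 0.0343). let-7d* fell over the same interval from 8.43 and 8.33 to 3.33 and 5.56 (log2 difference -3.93, SE 0.78, adjusted p = 0.00995). The arms of the other pairs differed alike: let-7b* was at least 12.4-fold and miR-16* at least 4.53-fold lower, while let-7b (0.42, SE 0.12) and miR-16 (0.80, SE 0.24) rose. The plain arms were bright in untreated cells and at both times, and the asterisk arms were at the floor in untreated cells.

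**Figure D3:**
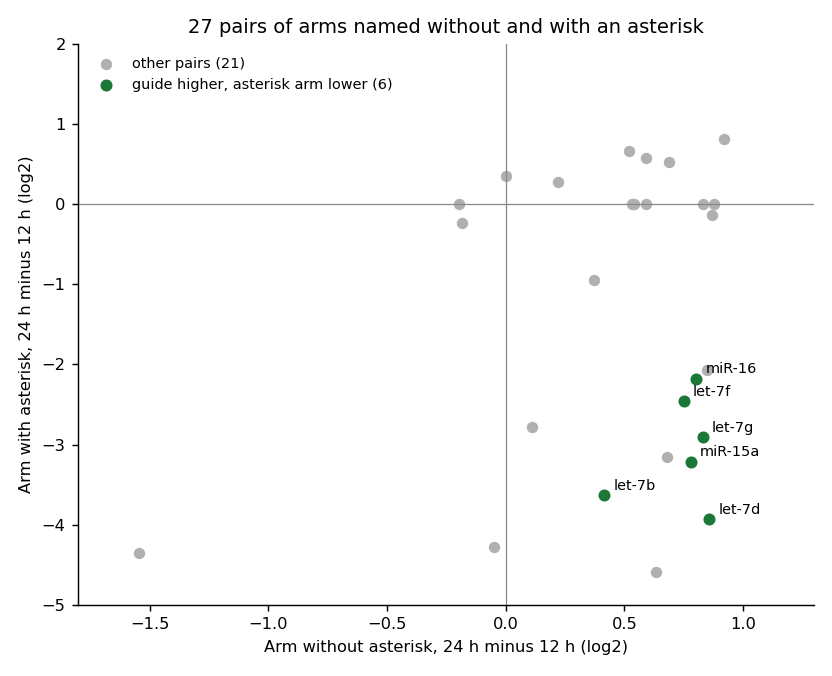
Difference between 24 h and 12 h (log2) of the plain arm (x axis) and of the asterisk arm (y axis) in 27 pairs; green marks the 6 pairs in which the plain arm was higher and the asterisk arm lower. The 6 lie between 0.42 and 0.86 on the x axis and between -3.93 and -2.18 on the y axis, and no pair lies in the opposite quadrant past the threshold in both arms.

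Lists linked to stress signalling held members that moved in both directions. A list of miRNAs linked in the literature to PERK, ATF6 or CHOP also took in miR-346, which is linked to XBP1. Of the list's 7 tested members 3 fell, 1 rose and 3 did not pass, beside 21.9% lower and 17.6% higher among all tested miRNAs. miR-346, which XBP1 is reported to raise in human cells, read 8.87 and 8.68 at 12 h and 3.33 and 6.07 at 24 h, with both untreated arrays at the floor (log2 difference -4.07, SE 1.11, adjusted p = 0.0264). miR-211, a PERK-dependent miRNA that targets Chop in mouse cells, was at least 8.06-fold lower at 24 h (7.11 and 6.64 against 3.33 and 4.41, adjusted p = 0.00567). miR-204, which shares the seed UCCCUUU with miR-211, was at least 2.15-fold lower (adjusted p = 0.0298) and turned positive (0.02) under normexp. miR-199a-5p rose, while miR-214 from the same transcript (0.87, SE 0.35, adjusted p = 0.0878) and miR-221 (0.47, SE 0.26, adjusted p = 0.195) did not pass. Of 3 tested miRNAs reported to be cleaved by IRE1, 1 rose, miR-125b-5p, and of 5 induced by NF-kB none passed, miR-146b included (0.88, SE 0.41, adjusted p = 0.139).

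In the imprinted Dlk1-Dio3 cluster 3 of 15 tested members fell and none rose, a share near the 21.9% lower among all tested miRNAs: miR-485* from 8.93 and 8.82 to 3.33 and 5.88 (adjusted p = 0.0170), miR-667 by at least 3.91-fold and miR-329 by at least 2.06-fold. The difference of miR-329 turned positive under normexp (0.052) and quantile normalization (0.060). miR-206, the only tested muscle marker, read 6.28 and 5.87 at 12 h and the floor on the other 4 knockout arrays, at least 6.74-fold lower at 24 h (adjusted p = 0.00519). Of 5 tested neural markers miR-129-3p rose (0.81, SE 0.24, adjusted p = 0.0361), while miR-129-5p (0.66), miR-9* (0.35) and miR-128, at the floor on all 4 arrays, did not pass. Both tested markers of pluripotent cells fell, miR-294 by at least 7.75-fold and miR-290-5p with no array detecting it at either time, and the difference of miR-290-5p turned positive under normexp (0.13) and quantile normalization (0.15). The Hox-cluster miRNA miR-615-3p was at least 6.67-fold lower (adjusted p = 0.00352), and 4 other tested Hox-cluster members did not pass. miR-877*, an arm of a mirtron (an intron whose splicing releases the hairpin), fell from 11.28 and 10.46 to 4.59 and 8.43 (log2 difference -4.36, SE 1.23, adjusted p = 0.0298).

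Signal on 2 viral miRNAs, which are not among the mouse miRNAs tested, was higher on both 12 h arrays than on both 24 h arrays as well. mghv-miR-M1-2 gave a scaled signal of 674.7 and 202.1 at 12 h, 47.4 and 86.2 at 24 h and 51.3 and 13.2 in untreated cells. It was detected on all of these arrays, of which the first 12 h array stands far above the second. mghv-miR-M1-6 gave 61.2 and 49.5 at 12 h and was not detected on the 24 h or the untreated arrays. The part of such signal in the falls was not tested. Of 170 probes of the 56 falling miRNAs, 168 were lower at 24 h in both replicates, and every probe was lower for 54 of the 56. The falls were called on the sum of these same probes, so this count describes them and adds no support.

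let-7, the family that restrains growth and holds back genes such as Hmga2, had 9 tested members, all detected on the 4 arrays. All were higher at 24 h in both replicates, of which 7 rose and 2 did not pass. Beside this, 17.6% were higher among all tested miRNAs and 32.8% among the 125 above the floor on all 4 arrays (41.6% in either direction, 8.8% lower). The median difference of the let-7 members was 0.75, against 0.44 among those 125. let-7i rose most, from 9.21 and 9.02 to 9.68 and 10.42 (log2 difference 0.94, SE 0.24, limma adjusted p = 0.0221), and untreated cells read 10.14 and 10.15. let-7g (0.83, SE 0.19), let-7f (0.75, SE 0.21) and let-7a (0.78, SE 0.25) rose less, and let-7e read 0.50 (SE 0.22, adjusted p = 0.118) without passing, as did 1 other member. The sum of the family's scaled signal took up 8.26% and 8.05% of the tested signal at 12 h and 14.01% and 15.9% at 24 h. Family members differ at few bases, and signal from one can reach another's probe, so members are not independent. Without scaling between arrays the let-7 median was 0.43, and no miRNA at all passed upward.

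**Figure D4:**
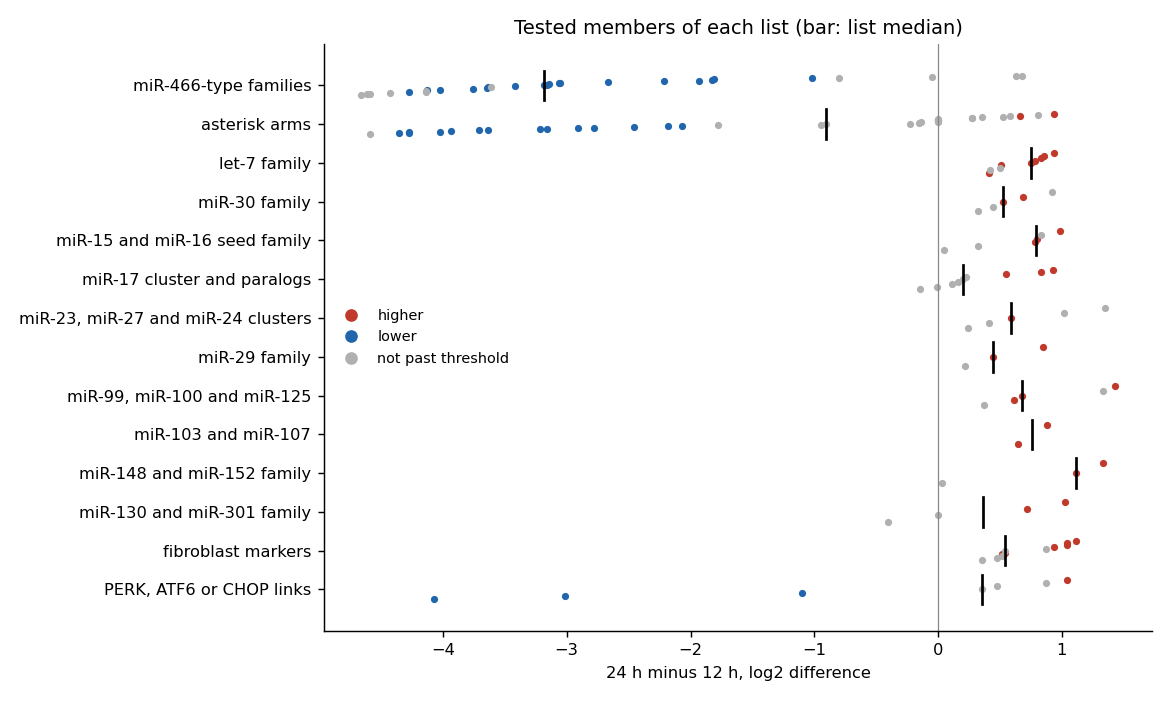
Difference between 24 h and 12 h (log2, x axis) for each tested member of 14 lists, coloured by whether it passed the threshold, with a bar at the list's median. The miR-466-type families and the asterisk arms reach below -4, and the medians of let-7, of miR-15 with miR-16, of miR-103 with miR-107 and of miR-148 with miR-152 lie between 0.75 and 1.11; the medians of the asterisk arms, the miR-17 cluster with its paralogs and the miR-29 family change sign under at least 1 other processing.

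In the seed family of miR-15 and miR-16, which slows the cell cycle, 3 of 6 tested members rose and 3 did not pass (median 0.79). Among all tested miRNAs 17.6% were higher, and 32.8% of those above the floor on all 4 arrays. miR-15b read 9.03 and 8.99 at 12 h and 9.67 and 10.32 at 24 h, above the untreated 9.58 and 9.60 (log2 difference 0.98, SE 0.20, adjusted p = 0.0120). miR-15a (0.78, SE 0.21) and miR-16 were the others, and miR-322, from the X chromosome, did not pass (0.83, SE 0.32, adjusted p = 0.0812). Both miR-103 (0.88, SE 0.17, adjusted p = 0.00922) and miR-107 (0.64, SE 0.16), which regulate metabolism and Dicer, rose and ended below their untreated levels. miR-103 read 7.72 and 7.75 in untreated cells, 6.20 and 6.17 at 12 h and 6.92 and 7.21 at 24 h.

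The largest rise was that of miR-193b, a miRNA that restrains proliferation in several cell types. It read 3.80 and 3.96 at 12 h and 4.64 and 6.82 at 24 h (log2 difference 1.85, SE 0.60, limma adjusted p = 0.0468), with 5.64 and 5.63 in untreated cells. The second 24 h array lay above the untreated arrays and the first below them. miR-100, which targets mTOR, read 3.87 and 4.27 at 12 h and 4.98 and 6.02 at 24 h (1.43, SE 0.36, adjusted p = 0.0205). With the software's total gene signal these differences were negative, -0.20 for miR-193b and -1.28 for miR-100, and that of miR-148a was -0.08. In the list of miR-99, miR-100 and miR-125, 3 of 5 tested members rose (median 0.68), with miR-125b-5p (0.68, SE 0.15, adjusted p = 0.0157) and miR-125a-5p (0.61, SE 0.15) as the brighter ones. That count stands beside 17.6% higher among all tested miRNAs and 32.8% among those above the floor on all 4 arrays. miR-99a was at the floor on 3 of the 4 arrays and at 5.99 on the second 24 h array, and did not pass (adjusted p = 0.194).

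In the family of miR-148 and miR-152, regulators of the DNA methyltransferase Dnmt1, 2 of 3 members rose (median 1.11). Among all tested miRNAs 17.6% were higher. miR-152 was at the floor and undetected on both 12 h arrays and read 4.25 and 4.63 at 24 h, at least 2.16-fold higher (log2 difference 1.11, SE 0.16, adjusted p = 0.00352), still under the untreated 5.63 and 5.80. miR-148a rose from 4.52 and 4.23 to 5.18 and 6.25 (adjusted p = 0.0203). miR-148b, near the floor on every knockout tunicamycin array, did not pass (adjusted p = 0.897). The pair miR-362-5p (at least 2.16-fold higher) and miR-362-3p (at least 2.06-fold higher), arms of 1 hairpin in an intron of Clcn5, were also undetected at 12 h and detected on both 24 h arrays. miR-362-3p has the same seed, ACACACC, as miR-329, which fell.

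Of 11 tested fibroblast and mesenchymal markers 6 rose and none fell, beside 17.6% higher among all tested miRNAs and 32.8% among those above the floor on all 4 arrays. Their median was 0.54, against 0.44 among the latter, to which 9 of the 11 belong, and 0.50 among the 95 reference miRNAs of the scaling. All 11 were higher in both replicates. miR-199a-3p, made with miR-214 from the antisense transcript of a dynamin gene, read 9.41 and 9.17 at 12 h and 9.95 and 10.71 at 24 h (log2 difference 1.05, SE 0.26, adjusted p = 0.0193). Its other arm, miR-199a-5p, differed by almost the same amount (1.04, SE 0.29), with 7.03 and 6.78 at 12 h and 7.50 and 8.40 at 24 h. miR-22 (0.54, SE 0.14) and miR-31 (0.52, SE 0.13) rose less. miR-21 was higher in both replicates and missed the threshold (0.54, SE 0.20, adjusted p = 0.0760).

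All 9 tested members of the miR-17 cluster (miR-17 to miR-92a) and its paralogs were above the floor on the 4 arrays. Of these 3 rose, a share near the 32.8% higher among all such miRNAs. The 3 all came from 1 cluster, the one in an intron of Mcm7 that holds miR-106b, miR-93 and miR-25. miR-106b read 7.02 and 6.93 at 12 h and 7.51 and 8.30 at 24 h (log2 difference 0.93, SE 0.22, adjusted p = 0.0183), miR-25 gave 0.83 (SE 0.15) and miR-93 0.55 (SE 0.11), which was -0.041 in the deposited values. The 6 other tested members did not pass, and the replicates disagreed on them. miR-19b, a growth-promoting member of the miR-17 cluster, was 0.68 higher in the first replicate and -0.23 in the second, miR-92a 0.55 and -0.15, and miR-20a 0.59 and -0.61. The median of the 9 was 0.20, and it was negative without scaling (-0.12), with scaling to the 50th percentile (-0.12), in the deposited values (-0.08) and without the first 24 h array (-0.20).

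In smaller families 2 of 5 tested miR-30 members rose (median 0.53), miR-30a (0.69, SE 0.10, adjusted p = 0.00352) and miR-30c (0.53, SE 0.17, but -0.20 with the total gene signal and -0.50 in the deposited values), while miR-30d (0.44, adjusted p = 0.0577) and miR-30e (0.92, adjusted p = 0.0610) did not pass. Of the miR-29 family, repressors of collagen genes, miR-29a (0.44, SE 0.097, adjusted p = 0.0140) and miR-29c (0.85, SE 0.27, but -1.69 with the total gene signal and -1.998 in the deposited values) rose and 1 member did not pass; the median of 0.44 was -0.09 in the deposited values. Of 4 tested members of the miR-130 and miR-301 family miR-130a (0.72, SE 0.17) and miR-301a (1.03, SE 0.30) rose (median 0.36). miR-24 (0.59, SE 0.094, adjusted p = 0.00443) was the 1 riser of 5 in the clusters of miR-23, miR-27 and miR-24 (median 0.59), and miR-23b, at 7.56 and 9.29 on the 24 h arrays, had a larger difference that did not pass (1.35, SE 0.49, adjusted p = 0.0677). miR-26a (0.68, SE 0.22) and miR-26b (0.88, SE 0.26) rose, as did miR-324-5p (1.00, SE 0.26). For comparison with the counts of these families, 17.6% of all tested miRNAs rose, and 32.8% of those above the floor on all 4 arrays. miR-210, the classic hypoxia-induced miRNA, read 4.10 and 3.97 at 12 h and 4.65 and 4.70 at 24 h (log2 difference 0.64, SE 0.11, limma adjusted p = 0.00519). Untreated cells read 6.83 and 6.87, so its level at 24 h was far under theirs.

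Several lists held no member that passed, and their values are given without a direction. In the family of miR-34, which p53 induces, and miR-449, which shares its seed, miR-34a read 7.60 and 7.42 at 12 h and 8.05 and 6.94 at 24 h, so that the replicates went opposite ways (adjusted p = 1.00). miR-34c (-0.18, SE 0.43) and miR-34b-5p (0.091, SE 0.30) did not pass, and miR-449a was at the floor. In the X-linked cluster of miR-322 and miR-503 the differences of miR-351 (-0.071), miR-542-5p (0.00) and miR-322* (0.00) were within 0.10 of 0. Of the cluster's 6 tested members 4 were at the floor on all 4 arrays, miR-542-5p and miR-322* among them. A difference of 0.00 at the floor does not measure a lack of change. In the miR-181 family the differences were -0.61 for miR-181d (SE 0.50), -0.28 for miR-181b (SE 0.33) and at most 0.10 in size for miR-181a and miR-181c. Both miR-181a and miR-181c were at the floor on all 4 arrays. The NF-kB targets miR-146a (-0.58, SE 0.51) and miR-132 (0.00, at the floor on all 4 arrays) did not pass either.

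Members of lists with other calls also stayed short of the threshold, in several cases with 24 h arrays far apart. miR-10b read 7.69 on the first 24 h array and the floor on the second (log2 difference -1.60, SE 1.19, adjusted p = 0.338), and miR-877 did the same (-1.55, SE 1.21). miR-574-3p went the other way, with 11.28 and 10.80 at 12 h, the floor on the first 24 h array and 9.31 on the second (-4.72, SE 1.82, adjusted p = 0.0810). miR-194 was above the floor on the second 24 h array only (1.29, SE 0.72). The Hox-cluster miRNAs miR-196a (1.26, SE 0.53, adjusted p = 0.102) and miR-196b (0.80, SE 0.39) were higher at 24 h without passing. Other differences that did not pass were those of miR-130b (-0.41), miR-301b (0.00), miR-29b (0.22), miR-101a (0.055), miR-101b (0.049), miR-532-5p (0.24), miR-500 (0.35), miR-299* (-0.90), miR-96 (0.23), miR-484 (0.24) and miR-27b (1.01). Of these, miR-301b was at the floor on all 4 knockout tunicamycin arrays. miR-574-5p (-2.47, SE 0.58) and miR-1187 (-2.86, SE 0.69), chosen after their values were seen, fell with both 24 h values under both 12 h values.

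The 2 replicates gave the rises in different sizes. All 45 were higher in both, 40 of them by more in the second, and the median was 0.49 in the first and 1.05 in the second. On the untreated arrays the 45 had median levels of 7.63 and 7.68, at 12 h 7.02 and 6.78, and at 24 h 7.42 and 8.24. The 45 made up 18.7% and 19.6% of the tested signal at 12 h and 33.7% and 39.2% at 24 h. That total includes the falling miRNAs, which went from 27.7% and 26.96% to 1.26% and 5.85% of it. The 45 were chosen by the test, so their directions, levels and shares describe them and add no support. Of the 93 probes of these miRNAs, 91 were higher in both replicates, and every probe was higher for 43 of the 45. The rises were called on the sum of these same probes, so that count adds no support. Among the 10 brightest miRNAs, 6 rose (miR-125b-5p, miR-22, let-7a, let-7b, let-7c and let-7f), of which the let-7 members are not independent. Beside this, 17.6% of all tested miRNAs were higher, and 32.8% of those above the floor on all 4 arrays. miR-720, whose sequence derives from a tRNA, was bright without passing (0.49, SE 0.22, limma adjusted p = 0.121). miR-23a (0.41, SE 0.19, adjusted p = 0.125) and miR-27a (0.24, SE 0.21, adjusted p = 0.425), from 1 cluster, completed the 10 with miR-21.

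Mature sequences in RefSeq were matched for 41 of the 45 rising and 30 of the 56 falling miRNAs by name or by a known arm. The 41 held 25 seeds, and 7 let-7 members shared GAGGUAG, miR-15a, miR-15b and miR-16 (3) shared AGCAGCA, and 8 other seeds had 2 members each. The 30 falling ones held 29 seeds, with only UCCCUUU present in 2 of them. Cytosine made up a median of 36.4% of the bases of the falling and 18.2% of the rising miRNAs, against 22.7% of the 51 matched miRNAs that did not pass. Pyrimidines together made up 63.6%, 45.5% and 50%. The runs of u and c in miR-207 and miR-877* printed above are examples. Sequences of most members of the miR-466-type families were not matched and are not in these figures, so they describe part of the falls, and no test was made.

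Wild type fibroblasts, on the same slide and scans, changed in much the same way over the same interval. In wild type 48 miRNAs fell (18.8%) and 8 rose (3.12%), 56 in all (21.9%). Of these, 46 falls and all 8 rises were also called in the knockout, which is 82.1% of the knockout's falls and 95.8% of the wild type's, and 17.8% of the knockout's rises and 100% of the wild type's. None was called in opposite directions. Wild type rises numbered 1 without the second wild type 12 h array and 26 without either knockout 24 h array, and falls 26 without the first wild type 24 h array. miR-706 read -3.94 in wild type against -3.87 in the knockout, and let-7i 0.41 (adjusted p = 0.277) against 0.94. The test of the difference between the genotypes' changes passed for 0 of 256 miRNAs (10 at an unadjusted p under 0.05, limma), so the larger number of rises in the knockout is not shown to be a difference between genotypes. Same-numbered arrays of the 2 genotypes at 1 time deviated together, with a correlation over the tested miRNAs of 0.87 untreated, 0.42 at 12 h and 0.52 at 24 h. With the replicate number within each time as a block, which leaves 3 residual degrees of freedom, the count was again 0 (10 at an unadjusted p under 0.05, limma). In the fit without that block the count was 43 without the first knockout 24 h array, 22 and 12 without the first and the second wild type 12 h array, 7 without the first wild type 24 h array and with the total gene signal, and between 0 and 3 in the rest.

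The genotypes came nearest to a difference in miR-152. It rose by 1.11 in the knockout and read -0.39 in wild type, a difference of 1.502 (SE 0.22, limma adjusted p = 0.0650). miR-290-5p (-0.99 against 0.12, adjusted p = 0.118) came next, though no knockout tunicamycin array detected it. miR-374 (0.54 against 0.00, adjusted p = 0.123) and miR-210 (0.64 against 0.00, adjusted p = 0.210) also moved in the knockout and stayed at the floor in wild type, and neither passed. The knockout difference of miR-374 was -0.16 without scaling. miR-193b read -0.13 in wild type, and its difference did not pass (adjusted p = 0.928).

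**Figure D5:**
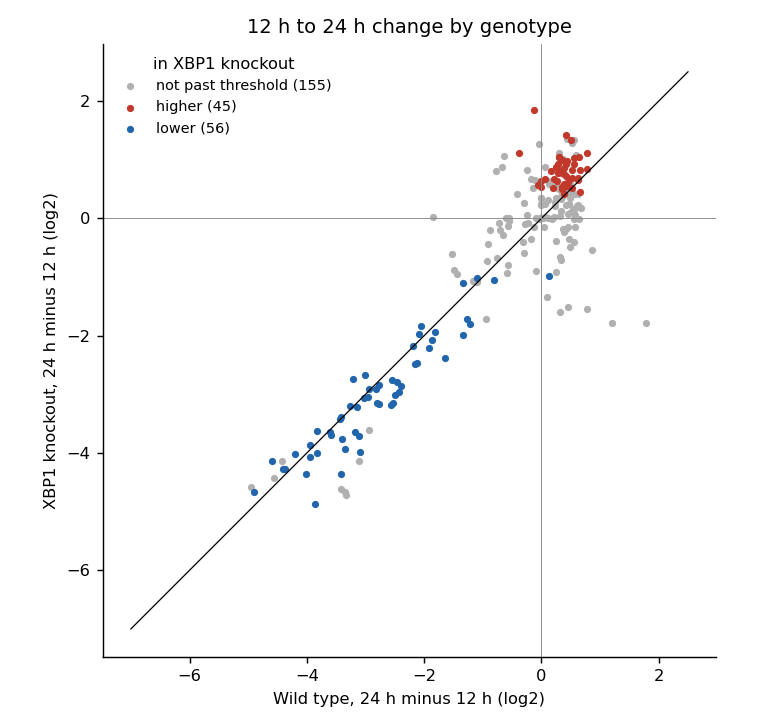
Difference between 24 h and 12 h (log2) in wild type (x axis) and XBP1 knockout (y axis) for the 256 tested miRNAs, coloured by the knockout's calls, with a line of equality. The 56 lower miRNAs follow the line, and most of the 45 higher ones lie above it, with no miRNA past the threshold for the difference.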

How the data were processed

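RNA from 12 cultures of mouse embryonic fibroblasts was hybridised to 1-colour Agilent miRNA arrays, 2 per group in 6 groups. Per the file headers, the authors deposited scanner intensity values from Agilent Feature Extraction 10.7.1.1 (version per the submitters' processing notes), and the background-subtracted processed intensity was used here. A deposited log2 table held the logarithm of the total gene signal and was not normalized between arrays; it served as an alternative. Control and outlier-flagged spots were left out, spots were averaged per probe, and probes were summed per miRNA. Arrays were scaled to a common 75th percentile of the 95 mouse miRNAs that every array detected, floored at the 5th percentile of detected signals (10.0), and put on the log2 scale. miRNAs were tested where some group had detected them on both of its arrays (256 of 611).

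limma 3.58.1 in R 4.3.3 (lmFit, contrasts, eBayes with a trend) fitted 1 mean per group over 12 arrays, with 6 residual degrees of freedom, and a Benjamini-Hochberg adjusted p under 0.05 was called. A member undetected in the dimmer group is given as a bound, "at least" a fold, from the group means of log2 values against the floor, which lies above the lowest signal that counted as detected. The mean signal column was not used here, so normexp took the median signal and local background with an offset of 50. The text names the 15 largest rises and falls, the 10 brightest, up to 4 members of each list by smallest p, and others chosen after their values were seen: let-7b*, let-7d, let-7e, miR-16*, miR-20a, miR-31*, miR-92a, miR-214, miR-221, miR-374, miR-466a-3p, miR-466c-5p, miR-466g, miR-467a, miR-467a*, miR-467b, miR-467b*, miR-467c, miR-574-3p, miR-574-5p, miR-669a, miR-669c, miR-669f and miR-1187. The number of arrays limits the precision. Other alternatives were the scaling, floor, filter, blocks and arrays left out. Members and lists were chosen with earlier results of these data known.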

Additional observations from a re-analysis of the deposited data

Results flagged for a closer look

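Probes for miRNAs of a mouse herpesvirus, which the comparisons of mouse miRNAs do not use, gave signal at 12 h above that of untreated knockout cells. mghv-miR-M1-2 had a mean scaled signal of 438 at 12 h in the knockout, against 32.3 in untreated cells and 66.8 at 24 h. The 12 h mean joins 674.7 on the first array and 202.1 on the second, against 47.4 and 86.2 at 24 h and 51.3 and 13.2 untreated. mghv-miR-M1-6 had a mean scaled signal of 55.3 at 12 h, against 2.06 in untreated cells and 12.4 at 24 h. Its arrays read 61.2 and 49.5 at 12 h, 11.0 and 13.8 at 24 h and 2.08 and 2.03 untreated, and only the 12 h arrays detected it among these. The untreated arrays lay on another slide and on other scans, so treatment is confounded with slide and scan there, while 12 h and 24 h shared a slide. With 2 arrays a group, single arrays could not be checked as far from the others.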

How the results depend on the processing

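The knockout counts (101 calls, 45 higher, 56 lower) stayed within 1.5 times under the other floors, the replicate block among 12 arrays (96, 41 and 55), the scan as a random block, outlier spots kept and no trend. They moved further in these settings, as all, higher and lower: normexp 43, 13 and 30, no scaling 34, 0 and 34, deposited values 16, 1 and 15, miRNAs above the floor on the 4 arrays 55, 43 and 12, miRNAs detected on them 56, 46 and 10, the 8 tunicamycin arrays 36, 7 and 29, the 4 knockout arrays 23, 0 and 23, and those 4 with the replicate block 0, 0 and 0. Higher calls alone moved with the 50th percentile (20), all mouse miRNAs (89), the 4-array reference (68), quantile normalization (81) and no filter on dim miRNAs (25). Leaving out 1 array gave 35 to 110 in all, 6 to 52 higher and 29 to 61 lower. The wild type counts (56, 8 and 48) became 93 and 47 (all and higher) with all mouse miRNAs, 104 and 63 under quantile normalization, 19, 0 and 19 in the deposited values, 23, 0 and 23 without scaling, 23, 1 and 22 under normexp, 4, 1 and 3 above the floor, 12, 4 and 8 among those detected, and 14, 0 and 14 on the 8 arrays. Higher calls there were 2 with the 50th percentile, 17 with the 4-array reference and 3 with the total gene signal, and leaving out 1 array gave 30 to 88, 1 to 26 and 26 to 62. The difference between genotypes, 0 in the main setting, had 3 calls in the deposited values, 2 without trend, 1 with the floor at the 10th percentile, 2 under normexp, 1 with the scan as a random block, 7 with the total gene signal and 0 to 43 without 1 array. With the replicate block within each time, chosen after seeing the data, it had 0. With the 50th percentile, the sign turned for the miR-17 cluster list median (-0.12), miR-101b (-0.27), miR-19b (-0.096), miR-27a (-0.079), miR-29b (-0.10), miR-34b-5p (-0.23), miR-92a (-0.12) and miR-96 (-0.093). In the deposited values, the sign turned for the miR-17 cluster list median (-0.084), the miR-29 family median (-0.089), miR-100 (-1.58), miR-101b (-2.10), miR-148a (-0.38), miR-181b (1.79), miR-193b (-0.51), miR-196a (-0.74), miR-19b (-0.084), miR-27a (-0.066), miR-29b (-0.089), miR-29c (-1.998), miR-30c (-0.50), miR-34b-5p (-0.22), miR-467b (-1.88), miR-500 (-0.42), miR-764-5p (0.96), miR-92a (-0.11), miR-93 (-0.041) and miR-96 (-0.080). Without scaling, the sign turned for the miR-17 cluster list median (-0.12), miR-101b (-0.18), miR-19b (-0.094), miR-27a (-0.077), miR-29b (-0.10), miR-34b-5p (-0.23), miR-374 (-0.16), miR-92a (-0.12) and miR-96 (-0.091). Under normexp, the sign turned for the asterisk arm median (0.049), miR-130b (0.14), miR-146a (0.064), miR-181b (0.12), miR-181d (0.093), miR-204 (0.017), miR-20a (0.0057), miR-290-5p (0.13), miR-299* (0.020), miR-329 (0.052), miR-34a (0.045), miR-34c (0.051) and miR-351 (0.15). Above the floor on the 4 arrays, the sign turned for the asterisk arm median (0.27). Among those detected on the 4 arrays, the sign turned for the asterisk arm median (0.063). With the total gene signal, the sign turned for miR-100 (-1.28), miR-101b (-2.02), miR-146a (0.075), miR-148a (-0.078), miR-181b (2.10), miR-181d (0.055), miR-193b (-0.20), miR-196a (-0.43), miR-29c (-1.69), miR-30c (-0.20), miR-34c (0.16), miR-467b (-1.57), miR-500 (-0.12) and miR-764-5p (0.94). With floor values left out, the sign turned for miR-10b (0.58), miR-130b (0.63) and miR-146a (0.25). With all mouse miRNAs as the reference, the sign turned for miR-130b (0.55), miR-146a (0.37), miR-181b (0.78), miR-181d (0.45), miR-20a (1.05), miR-299* (0.054), miR-34a (1.04), miR-34c (0.88) and miR-466a-3p (0.038). Under quantile normalization, the sign turned for miR-130b (0.54), miR-146a (0.48), miR-181b (0.72), miR-181d (0.46), miR-20a (0.83), miR-290-5p (0.15), miR-299* (0.049), miR-329 (0.060), miR-34a (0.70) and miR-34c (0.60). With the reference detected on the 4 arrays, the sign turned for miR-20a (0.11) and miR-34a (0.10). With outlier spots kept, the sign turned for miR-20a (0.012). Leaving out 1 array gave ranges that cross 0 for the miR-17 cluster list median -0.20 to 0.60, miR-101b -0.47 to 0.57, miR-10b -3.78 to 0.58, miR-130b -1.44 to 0.63, miR-146a -1.42 to 0.25, miR-19b -0.19 to 0.64, miR-20a -0.59 to 0.57, miR-27a -0.031 to 0.52, miR-29b -0.12 to 0.56, miR-34a -0.57 to 0.54, miR-34b-5p -0.41 to 0.59, miR-34c -0.90 to 0.55, miR-92a -0.20 to 0.60. The cause was not tested. The slide as a random block was not run, since every group lies on 1 slide. Same-numbered knockout arrays of 12 h and 24 h deviated with a correlation of -0.08 over the tested miRNAs, so the numbers were not taken as pairs beyond the shared scan. With 2 arrays a group, and values at the floor on at least 1 of the 4 arrays for 131 tested miRNAs, depth and spread limit small differences of dim miRNAs.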
